A study of Mus musculus with 6 samples.

Results

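Lad1, Scube1, Tnnt2, Pcolce, Sned1 and Tgm2 were examined as 6 genes with lower values in retinas exposed to chronic intermittent hypoxia (CIH) than in their controls and with no well established role in the retina, out of 20021 genes tested. They were picked by name for this difference between the groups OIR-CIH and OIR-Norm, with no numeric threshold, so that it is given as a description of the members and with no p-value. All wild-type C57BL/6J pups had been kept with their mothers at 75% O2 from postnatal day 8 (PN8) to PN13, which removes capillaries from the central retina (oxygen-induced retinopathy, OIR). From PN13 the OIR-CIH pups were exposed for 10 h daily, in their sleep period, to 266 cycles of 135 s in which O2 fell from 20.95% to 5% and rose again, and the OIR-Norm pups received the same gas flow at unchanged O2. Retinal RNA was sequenced at PN18 from 3 OIR-CIH and 3 OIR-Norm libraries, and both groups carry the hyperoxia, so that neither is a healthy retina.

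The members encode proteins of different kinds, most of them placed outside the cell or at its edge. Ladinin 1 (Lad1) is known from the basement membrane zone of epithelia, SCUBE1 is a secreted and cell-surface glycoprotein with EGF-like repeats and a CUB domain, and SNED1 is a glycoprotein of the extracellular matrix with sushi, nidogen and EGF-like domains. Procollagen C-endopeptidase enhancer (Pcolce) speeds the removal of the C-terminal propeptide of fibrillar procollagens, a step that precedes fibril assembly, and transglutaminase 2 (Tgm2) cross-links proteins between glutamine and lysine residues in a calcium-dependent reaction. Cardiac troponin T (Tnnt2) is the subunit that ties the troponin complex to tropomyosin in heart muscle.

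The total count per library was between 26289905 and 38010151, with overlapping totals in the groups. Rod photoreceptor markers summed to between 50431 and 65876 CPM (the read count of a gene scaled to the size of its library), as a retina should give. Xist ran from 298 to 1653 CPM over the libraries, and Ddx3y, which lies on the Y chromosome, from 21.2 to 65.0 CPM. The mix of sexes thus differed between libraries, and its part in the members' values was not tested. The methods describe 3 eyes in each group. RNA of both sexes in a library goes against a single eye, the number of animals behind each library is not known, and the SD, standard errors and p-values measure the spread between libraries, which may be technical. Lens markers reached 564 CPM in OIR-Norm replicate 2 against at most 87.6 CPM elsewhere, and surface epithelium markers 28.7 CPM in OIR-CIH replicate 3 against at most 8.39 CPM elsewhere. Values of the members, of Flnc and of Fbln1 are also given without both of these libraries. In whole tissue, fewer cells of a type and less RNA per cell cannot be told apart.

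In each of the 6 members every OIR-CIH library lay below every OIR-Norm library, and the mean in OIR-CIH was between 24.8% of the OIR-Norm mean for Scube1 and 58.8% for Sned1. Such separation with OIR-CIH lower was found for 9.26% of all genes tested, and a call of lower expression by edgeR's quasi-likelihood test (adjusted p under 0.05 and a log2 fold change beyond 0.5) for 0.215%. All 6 members met that call, a count that their choice on these libraries fixes and that supports nothing. The fitted log2 fold changes ran in the order Scube1, Lad1, Tnnt2, Tgm2, Pcolce and Sned1.

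**Figure D1:**
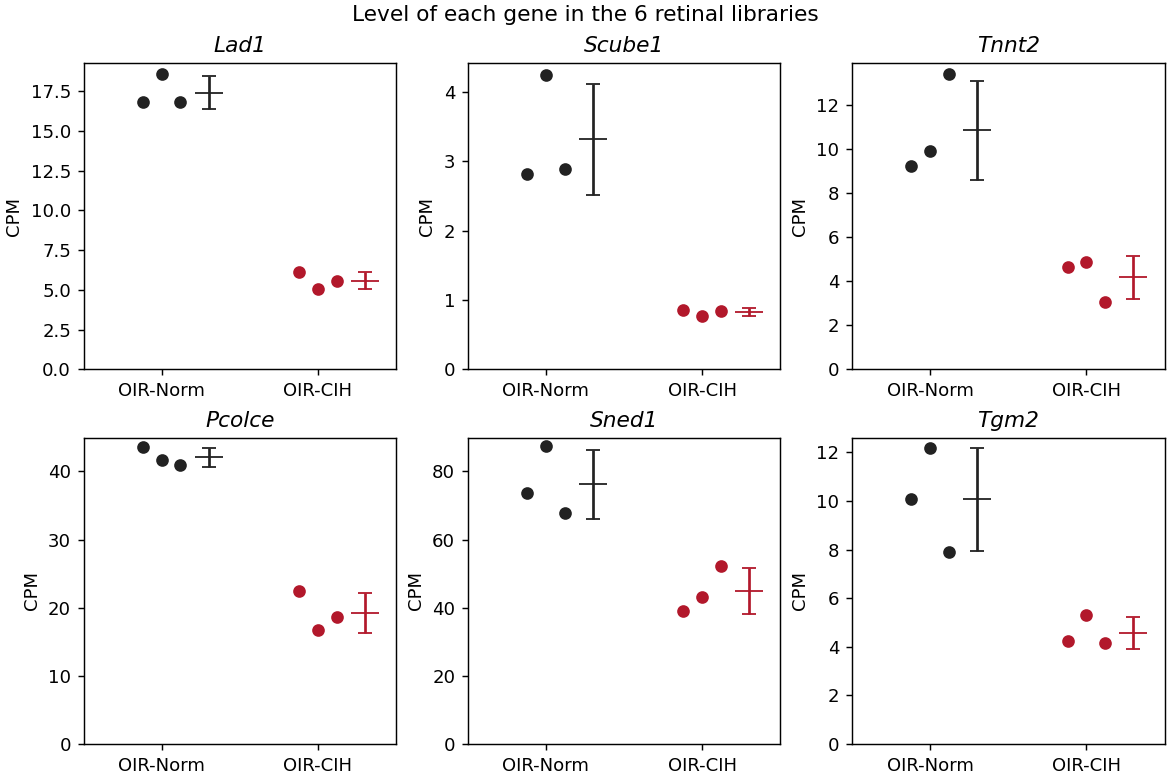
Each panel plots the CPM of 1 gene (vertical axis, from 0) in the 3 OIR-Norm libraries (black) and the 3 OIR-CIH libraries (red), with the mean and SD of each group beside the points. Every red point lies below every black point in all 6 panels, with the widest relative gap for Scube1 and the narrowest for Sned1.

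Scube1 (ENSMUSG00000016763, chr15:83604999-83725021, minus strand, GENCODE M21 on GRCm38) had the fewest reads and the largest difference. It had 0.863, 0.763 and 0.847 CPM in OIR-CIH replicates 1, 2 and 3 and 2.82, 4.24 and 2.89 CPM in OIR-Norm replicates 1, 2 and 3. These values rest on 22, 22 and 32 reads against 87, 121 and 92. The OIR-CIH libraries were close together (0.824 ± 0.0539 CPM, SD, n = 3), while in OIR-Norm replicate 2 stood above the other libraries (3.32 ± 0.802 CPM, SD, n = 3). The fitted difference was -2.00 on the log2 scale (standard error 0.24). Without OIR-Norm replicate 2 it was -1.79, and with 0.5 CPM added before taking logarithms it was -1.51.

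The stretch before the Scube1 start is shown because it was the most GC-rich of the members. The 250 bases upstream of the RefSeq start (GRCm38.p6, chr15:83725040-83725289, minus strand, printed 5′ to 3′) were 75.2% G or C, above 96.1% of all windows of this kind. Capitals mark, in order, a GC box (GGGCGG on the other strand) and a CCAAT motif, which start 45 and 25 bases before the transcription start.
Scube1: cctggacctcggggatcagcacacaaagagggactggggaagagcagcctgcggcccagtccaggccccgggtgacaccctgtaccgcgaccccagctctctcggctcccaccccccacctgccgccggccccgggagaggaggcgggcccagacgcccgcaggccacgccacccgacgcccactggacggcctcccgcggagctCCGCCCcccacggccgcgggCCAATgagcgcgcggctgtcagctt
A GC box was present in 32.7% and CCAAT in 33.8% of the 32851 windows of 250 bases before all RefSeq starts, so that neither is unusual.

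Lad1 (ENSMUSG00000041782, chr1:135818598-135833342, plus strand) differed little between the libraries of a group. It had 6.12, 5.03 and 5.58 CPM in the OIR-CIH libraries and 16.8, 18.6 and 16.8 CPM in the OIR-Norm libraries. The means were 5.58 ± 0.547 and 17.4 ± 1.03 CPM (SD, n = 3 each), and the lowest OIR-Norm library was 2.75 times the highest OIR-CIH library. On the log2 scale the difference was -1.64 (standard error 0.12), and it lay between -1.71 and -1.57 when each library was left out in turn.

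Tnnt2 (ENSMUSG00000026414, chr1:135836354-135852260, plus strand) had 4.63, 4.85 and 3.07 CPM in OIR-CIH and 9.22, 9.93 and 13.4 CPM in OIR-Norm. Replicate 3 was the lowest of the OIR-CIH libraries and replicate 3 of OIR-Norm the highest, which left a CV of 23.2% and 20.6% in the groups. The means were 4.18 ± 0.972 and 10.8 ± 2.23 CPM (SD, n = 3 each), a log2 fold change of -1.38 (standard error 0.20).

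Pcolce (ENSMUSG00000029718, chr5:137605103-137613784, minus strand) had 22.5, 16.7 and 18.6 CPM in OIR-CIH and 43.6, 41.7 and 40.9 CPM in OIR-Norm. The OIR-Norm libraries differed little from each other (CV 3.31%), and the group means were 19.3 ± 2.93 and 42.1 ± 1.39 CPM (SD, n = 3 each). On the log2 scale the difference was -1.13 (standard error 0.11).

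Tgm2 (ENSMUSG00000037820, chr2:158116402-158146436, minus strand) had 4.24, 5.30 and 4.15 CPM in OIR-CIH and 10.1, 12.2 and 7.92 CPM in OIR-Norm. The OIR-Norm libraries were the more widely spread, with a CV of 21.2% against 14.0% in OIR-CIH, and the means were 10.1 ± 2.13 and 4.57 ± 0.641 CPM (SD, n = 3 each). The difference came to -1.14 on the log2 scale (standard error 0.17). Leaving out each library in turn gave values between -1.29 and -0.98.

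Sned1 (ENSMUSG00000047793, chr1:93235841-93301065, plus strand) had the most reads of the members and the smallest difference. It had 39.2, 43.1 and 52.3 CPM in OIR-CIH and 73.6, 87.5 and 67.8 CPM in OIR-Norm, with means of 44.8 ± 6.72 and 76.3 ± 10.1 CPM (SD, n = 3 each). The highest OIR-CIH library, replicate 3, came to 68.5% of the OIR-Norm mean, the closest approach of the groups among the members. The difference was -0.76 on the log2 scale (standard error 0.11), between -0.89 and -0.65 when each library was left out in turn.

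Levels of different genes were compared per length, as CPM per kilobase of the union of a gene's exons in GENCODE M21. This union takes in the exons of every annotated transcript, 15 for Tnnt2 over 7752 bases and 3 for Lad1 over 3400 bases. A union longer than the transcripts present lowers the value. Which transcripts were present was not examined, so that the order holds for this measure only. In OIR-Norm the order was Pcolce (11.0 ± 0.364), Sned1 (8.04 ± 1.07), Lad1 (5.12 ± 0.303), Tgm2 (2.18 ± 0.462), Tnnt2 (1.40 ± 0.287) and Scube1 (0.338 ± 0.0816; SD, n = 3 each). The libraries of neighbours in this order did not overlap except for Tgm2 and Tnnt2, whose values were 1.72 to 2.64 and 1.19 to 1.73. In OIR-CIH the order was the same, but Pcolce (5.04 ± 0.766) and Sned1 (4.72 ± 0.708) overlapped, with 4.38 to 5.88 against 4.13 to 5.51. Lad1, Tgm2, Tnnt2 and Scube1 followed at 1.64 ± 0.161, 0.991 ± 0.139, 0.540 ± 0.125 and 0.0839 ± 0.00549 (SD, n = 3 each). By this measure Pcolce rather than Sned1 had the highest mean of the members.

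Lad1 and Tnnt2 lie next to each other. On the plus strand of chromosome 1 the annotated end of Lad1 is followed after 3011 bases by the start of Tnnt2, with no tested gene in between. Position was not used in choosing the members. On the other side of Lad1, Tnni1, a slow skeletal troponin I gene, had 0.582 CPM in OIR-CIH and 0.752 CPM in OIR-Norm (log2 fold change -0.40, standard error 0.46, adjusted p = 0.75 by edgeR with Benjamini-Hochberg adjustment). Beyond Tnnt2, Pkp1, which encodes the desmosomal protein plakophilin 1, had 5.98 and 5.38 CPM (log2 fold change 0.16, standard error 0.16, adjusted p = 0.718 by edgeR).

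The 250 bases before each of these starts are printed to set the adjacent genes side by side (RefSeq, GRCm38.p6, 5′ to 3′). The window of Lad1 is chr1:135818348-135818597 and that of the first Tnnt2 start chr1:135836084-135836333, both on the plus strand. Capitals mark CATTCC, the MCAT core that is a classic element of cardiac troponin T promoters, which starts 27 bases before the Tnnt2 start.
Lad1: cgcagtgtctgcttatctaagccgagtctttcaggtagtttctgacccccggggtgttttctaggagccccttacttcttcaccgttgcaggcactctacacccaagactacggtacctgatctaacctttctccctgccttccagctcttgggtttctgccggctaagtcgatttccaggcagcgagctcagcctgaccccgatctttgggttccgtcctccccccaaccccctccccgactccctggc
Tnnt2: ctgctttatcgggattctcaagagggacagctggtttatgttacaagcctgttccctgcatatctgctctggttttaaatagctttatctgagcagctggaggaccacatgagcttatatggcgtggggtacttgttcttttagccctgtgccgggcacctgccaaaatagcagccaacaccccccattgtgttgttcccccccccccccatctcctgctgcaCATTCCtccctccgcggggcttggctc
CATTCC, a motif added to the search after the sequences were seen, was found in 12.6% of all windows on either strand. AP-1 (TGANTCA), STAT (TTCNNNGAA), the ACGTG form of the hypoxia response core and TATAAA were present in 6.75%, 7.02%, 16.6% and 12.4% of all windows. None of these was found in the 6 windows of the 5 members with an entry, which were read on both strands. The GCGTG form of the hypoxia response core was not counted over all windows. Read on both strands, it was present in the windows of Scube1, Pcolce, Sned1 and the first Tnnt2 start. GGGCGG was found for Scube1, Pcolce and Sned1, and CCAAT for Scube1 and the second Tnnt2 start. No match overlapped another. Tgm2 had no entry.

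The 5 nearest tested genes on each side were examined for every member, 50 genes in all without the members. By edgeR 0 of them were called, against 0.315% of all genes, and 9 had an unadjusted p under 0.05, where 13.2% of all genes did. DESeq2, limma-voom and limma also called 0, with 6, 7 and 7 at an unadjusted p under 0.05. In OIR-CIH 23 of the 50 had lower and 27 higher values, and their median log2 fold change was 0.01. Nnat, the fifth gene before Tgm2, had an adjusted p of 0.00863 by edgeR and a log2 fold change of 0.50, just under the minimum. The study's own list of changed genes holds Nnat as higher in OIR-CIH.

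**Figure D2:**
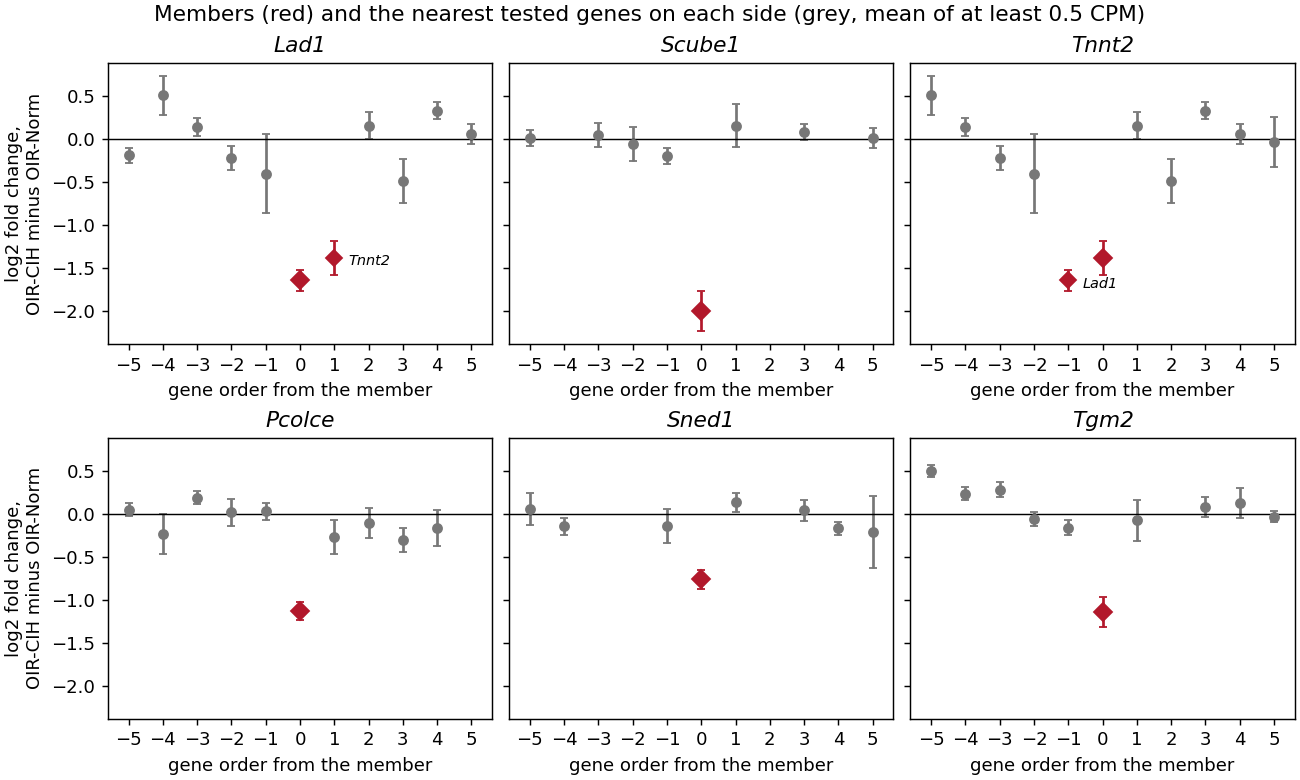
Each panel plots the log2 fold change (OIR-CIH minus OIR-Norm, bars are standard errors) of 1 member at position 0 and of up to 5 tested genes on each side, ordered along the chromosome, with members in red and other genes with a mean of at least 0.5 CPM in grey. The adjacent Lad1 and Tnnt2 sit at -1.64 and -1.38, while the 50 neighbours that are not members have a median of 0.01.

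The immediate neighbours of the other members did not pass the test either. Beside Scube1, Ttll12 had 27.4 CPM in OIR-CIH and 31.4 CPM in OIR-Norm and Mpped1 1.29 and 1.16 CPM (adjusted p = 0.413 and 0.826 by edgeR). Mospd3, which precedes Pcolce, differed by 0.03 on the log2 scale (adjusted p = 0.939 by edgeR), and Crocc2, before Sned1, was at 2.46 and 2.74 CPM (adjusted p = 0.795 by edgeR). D630003M21Rik, after Tgm2, was at 1.49 and 1.59 CPM (adjusted p = 0.92 by edgeR).

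Some members overlap other annotated genes, and since the strand setting of the counting is not given in the sources used here, reads could be shared. Fbxo24, on the same strand as Pcolce, had 2.35 CPM in OIR-CIH and 2.82 CPM in OIR-Norm (adjusted p = 0.606 by edgeR), and the antisense gene Gm36266 had 3.21 and 3.47 CPM (adjusted p = 0.831 by edgeR). Rprd1b, which overlaps Tgm2 on the opposite strand, had 56.6 and 63.3 CPM (adjusted p = 0.441 by edgeR), and Mterf4, opposite the end of Sned1, 18.1 and 16.5 CPM (adjusted p = 0.646 by edgeR). Lad1, Scube1 and Tnnt2 overlap no other gene in GENCODE M21.

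Lists of family members, partners and substrates were compared with each member, 135 tested genes in 6 lists. By edgeR 1 of the 135, Flnc, was called lower and 0 were called higher, beside 0.215% and 0.0999% of all genes, and 29 had an unadjusted p under 0.05, where 13.2% of all genes did. Of these 29, 23 were lower, beside 7.01% of all genes that were lower at that p. DESeq2 called 4 lower (Flnc, Col1a2, Fbln2 and Loxl4) and 0 higher, beside 0.504% and 0.17% of all genes called by DESeq2, and limma-voom and limma called 0. All 4 were picked by the study on the present libraries and are thus no independent evidence. Values were lower in 85 and higher in 50 of the 135 genes, where 50.5% of all genes were lower. Over the 135 the median log2 fold change was -0.09, against 0.00 over all genes tested.

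**Figure D3:**
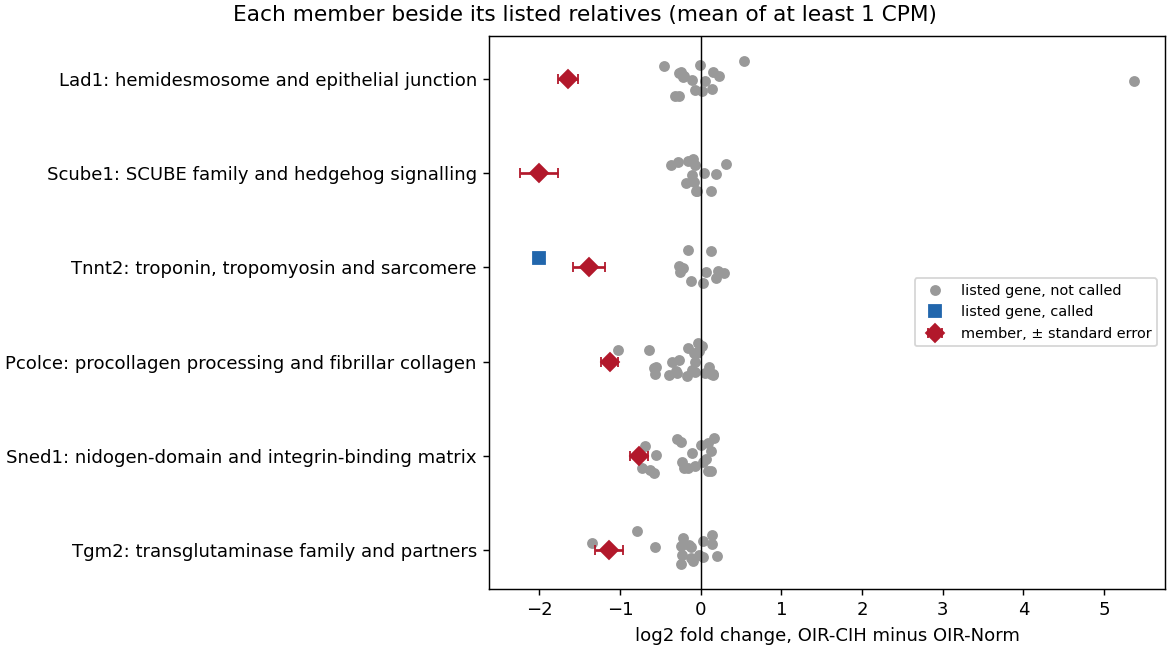
Log2 fold changes (OIR-CIH minus OIR-Norm, horizontal axis) are plotted for each member as a red diamond with its standard error and for the genes of its list with a mean of at least 1 CPM, in grey where not called and in blue where called; vertical scatter within a row has no meaning. Flnc at -2.00 is the blue point, and the point far to the right is Krt5 at 5.37, which was high in a single OIR-CIH library.

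Of 25 genes of hemidesmosomes, keratins and epithelial junctions listed beside Lad1, 13 had lower and 12 higher values in OIR-CIH. The median log2 fold change was 0.00, and 0 were called by edgeR or DESeq2 (7 and 6 at an unadjusted p under 0.05). Dst and Plec, whose proteins link intermediate filaments to hemidesmosomes, had 190 and 40.4 CPM in OIR-CIH and 238 and 55.5 CPM in OIR-Norm (adjusted p = 0.317 and 0.219 by edgeR). Krt18, a keratin of simple epithelia, was at 92.9 and 84.4 CPM (adjusted p = 0.594 by edgeR). Col17a1, the transmembrane collagen of hemidesmosomes, was at 10.8 and 11.6 CPM (adjusted p = 0.739 by edgeR). Epcam and Lamb3, which mark epithelia and their basement membrane, were below 1 CPM in the mean of each group.

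The paralogs of Scube1 were not called. Scube3 had 18.4, 21.3 and 18.6 CPM in OIR-CIH and 15.8, 16.4 and 14.7 CPM in OIR-Norm, so that all OIR-CIH libraries were above all OIR-Norm libraries, by 0.31 on the log2 scale (standard error 0.10), a difference that did not pass the test (adjusted p = 0.27 by edgeR). Scube2 was at 1.51 and 1.83 CPM (log2 fold change -0.28, standard error 0.22, adjusted p = 0.619 by edgeR). The list of 18 genes also held the hedgehog pathway, in which SCUBE proteins are known to help release the lipid-bearing ligands. In it 14 genes were lower and 4 higher, and 0 were called by edgeR or DESeq2 (4 and 3 at an unadjusted p under 0.05). The receptor gene Ptch1 had 133 and 122 CPM, the co-receptor gene Cdon 131 and 138 CPM and the pathway inhibitor gene Sufu 52.9 and 46.5 CPM in OIR-CIH and OIR-Norm (adjusted p = 0.464, 0.687 and 0.33 by edgeR). Gli1, a transcription factor and target of the pathway, was at 0.353, 0.485 and 0.397 CPM in OIR-CIH and 0.876, 0.772 and 0.723 CPM in OIR-Norm, apart but under 1 CPM (adjusted p = 0.287 by edgeR).

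The genes of the other troponin subunits that were tested did not pass the test. Tnnt1, slow skeletal troponin T, had 10.8 and 12.9 CPM in OIR-CIH and OIR-Norm (log2 fold change -0.25, standard error 0.12, adjusted p = 0.391 by edgeR), and Tnnt3, its fast form, stayed at or below 0.104 CPM in the mean of each group. Tnni3, the cardiac inhibitory subunit, was at 1.82 and 1.60 CPM and Tnnc1, the cardiac calcium-binding subunit, at 3.36 and 3.22 CPM (adjusted p = 0.755 and 0.908 by edgeR). The tropomyosin genes Tpm1, Tpm3 and Tpm4 had 108, 79.4 and 38.1 CPM in OIR-CIH and 106, 92.3 and 46.0 CPM in OIR-Norm (adjusted p = 0.922, 0.252 and 0.473 by edgeR). Heart muscle markers other than Ryr2 were at most 3.84 CPM in the mean of a group, with Myh6, Myh7, Nppa, Nppb, Mybpc3, Myl2 and Myl7 under 1 CPM.

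Flnc, which encodes the muscle filamin, was the gene called among 24 of the sarcomere list, where 12 were lower and 12 higher. It had 3.18, 3.43 and 2.46 CPM in OIR-CIH and 8.57, 21.6 and 5.94 CPM in OIR-Norm, with replicate 2 far above the other OIR-Norm libraries. The difference was -2.00 on the log2 scale (standard error 0.38), with an adjusted p of 0.0462 by edgeR. The value was -1.27 without OIR-Norm replicate 2, where it stayed called, and it lost the call when any single OIR-CIH library was left out (adjusted p between 0.104 and 0.253). Without OIR-Norm replicate 2 and OIR-CIH replicate 3 together it was -1.13, and the call was lost (adjusted p = 0.0557 by edgeR).

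Among 28 genes of procollagen processing and fibrillar collagens 20 were lower and 8 higher than in OIR-Norm, 0 were called by edgeR and 7 had an unadjusted p under 0.05, while DESeq2 called Col1a2 and Loxl4, both on the study's own list. Bmp1, which encodes the procollagen C-proteinase that PCOLCE enhances, had 40.2 and 51.3 CPM in OIR-CIH and OIR-Norm (log2 fold change -0.35, standard error 0.09, adjusted p = 0.178 by edgeR) and its groups were apart. The paralog Pcolce2 was at 7.01 and 6.27 CPM (log2 fold change 0.16, standard error 0.15, adjusted p = 0.708 by edgeR). The collagen gene Col1a2 had 10.8 and 16.2 CPM and Col3a1 2.20 and 4.52 CPM (log2 fold changes -0.58 and -1.02, adjusted p = 0.212 and 0.331 by edgeR). For both genes the groups overlapped. Col3a1 had 3.47, 8.31 and 1.76 CPM in OIR-Norm replicates 1, 2 and 3, against 2.43, 1.73 and 2.43 CPM in OIR-CIH. Col2a1, the fibrillar collagen with most counts in these retinas, was at 203 and 213 CPM, the collagen chaperone gene Serpinh1 at 54.8 and 59.2 CPM and the prolyl hydroxylase gene P4ha1 at 88.0 and 80.3 CPM (adjusted p = 0.811, 0.748 and 0.444 by edgeR). Fibroblast markers summed to between 100.3 and 145.7 CPM in OIR-CIH and between 146.2 and 213 CPM in OIR-Norm. Without Pdgfra, which is also in the astrocyte list, the sums overlapped (69.2 to 112.9 and 110.4 to 161 CPM), and so did Fbln1 by itself. Of the 10 markers 8 were lower and 2 higher and 0 were called by edgeR (5 lower at an unadjusted p under 0.05). The markers with the most reads were Fbln1, Pdgfra and Col1a2, at 59.3, 30.5 and 10.8 CPM against 98.5, 42.0 and 16.2 CPM. Ogn followed at 9.71 against 15.0 CPM, and 3 markers, Lum, Dcn and Pi16, were below 1 CPM. The part of such cells in the value of Pcolce was not tested.

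For Sned1, 20 genes of nidogen-domain and integrin-binding matrix proteins and integrins were listed, of which 12 were lower and 8 higher, 0 were called by edgeR and 5 had an unadjusted p under 0.05, all lower. DESeq2 called Fbln2. Fn1, which encodes fibronectin, had 116 and 171 CPM in OIR-CIH and OIR-Norm (log2 fold change -0.55, standard error 0.17, adjusted p = 0.229 by edgeR). Vtn, which encodes vitronectin, was at 569 and 545 CPM and Egflam, which encodes the photoreceptor synapse protein pikachurin, at 286 and 280 CPM (adjusted p = 0.848 and 0.938 by edgeR). Nid1 and Nid2, the nidogen genes, were at 13.8 and 22.1 CPM against 20.7 and 26.2 CPM (adjusted p = 0.52 and 0.618 by edgeR).

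Of 20 tested genes of transglutaminases and their partners listed beside Tgm2, 14 were lower and 6 higher, and 0 were called by edgeR or DESeq2 (4 and 3 at an unadjusted p under 0.05). Tgm1, the epidermal enzyme, was at 0.650 and 1.65 CPM in OIR-CIH and OIR-Norm (adjusted p = 0.272 by edgeR). F13a1, the coagulation factor XIII subunit, was at 1.42 and 2.51 CPM (adjusted p = 0.284 by edgeR). Tgm3, Tgm4, Tgm5, Tgm6 and Tgm7 had adjusted p between 0.581 and 0.974 by edgeR. The partners Mfge8, Lrp1 and Tgfb2, a phagocytic bridge protein, an endocytic receptor and a growth factor, had 295, 160 and 117 CPM in OIR-CIH and 257, 188 and 119 CPM in OIR-Norm (adjusted p = 0.45, 0.37 and 0.96 by edgeR).

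Marker genes of the cell types that the retina or its surroundings could contribute were summed per library. Astrocyte markers summed to 790 to 838 CPM in OIR-CIH and 854 to 970 CPM in OIR-Norm, where Aldoc, Slc1a2 and Gfap had the highest counts and Gfap was the marker called (63.8 and 142 CPM, adjusted p = 0.000107 by edgeR). Without Gfap the sums overlapped (728 to 771 and 734 to 822 CPM), as they did without Aqp4 (717 to 760 and 754 to 878 CPM). Microglia markers summed to 95.7 to 111 CPM and 119 to 137 CPM, and Fcrls was called (6.16 and 9.94 CPM, adjusted p = 0.0414 by edgeR). The microglia sum was lower in each OIR-CIH library than in each OIR-Norm library whichever of its 10 markers was left out. Müller glia markers (4746 to 5802 CPM and 4774 to 5463 CPM), endothelial markers (285 to 327 CPM and 289 to 373 CPM) and pericyte and smooth muscle markers (91.9 to 140 CPM and 99.6 to 243 CPM) overlapped. All 10 pericyte and smooth muscle markers had lower means in OIR-CIH (median -0.51 on the log2 scale), of which 4 had an unadjusted p under 0.05 and 0 were called by edgeR. Skeletal muscle (14.1 to 15.0 and 13.8 to 15.0 CPM), heart muscle (59.3 to 83.1 and 70.5 to 86.3 CPM) and pigment epithelium markers (449 to 667 and 297 to 613 CPM) overlapped as well. The part of each cell type in the members' values was not tested.

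**Figure D4:**
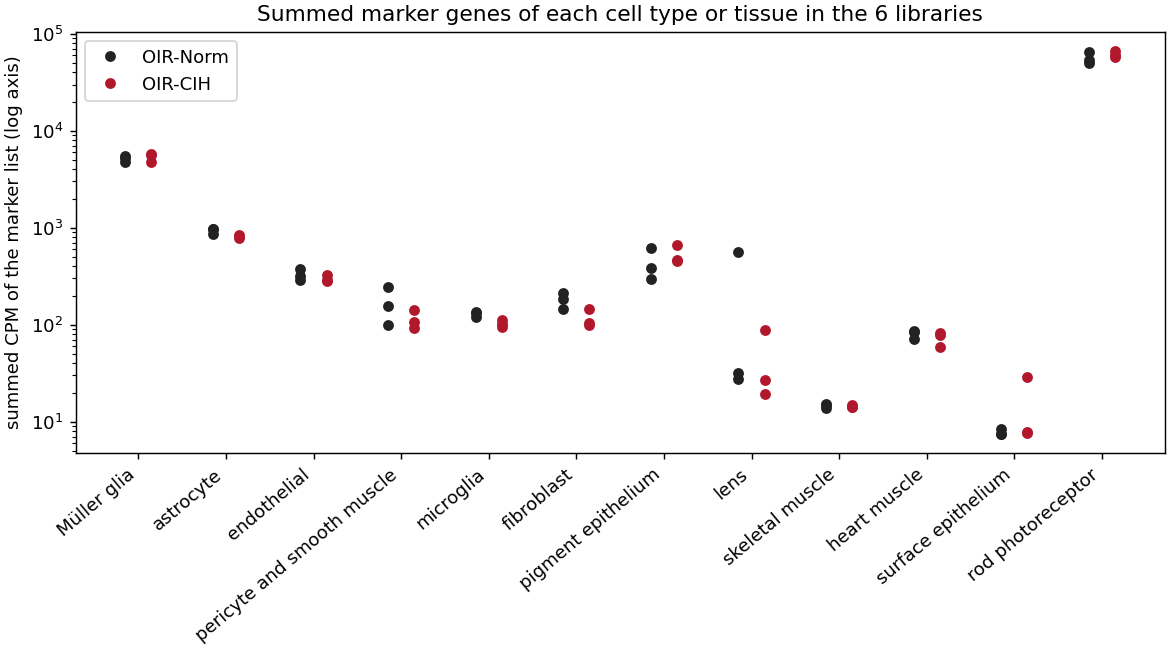
Points give the summed CPM (log axis) of each marker list in the 3 OIR-Norm libraries (black) and the 3 OIR-CIH libraries (red). Astrocyte, microglia and fibroblast sums are lower in every red library, for astrocytes only with Gfap and Aqp4 and for fibroblasts only with Pdgfra in the sum, and single libraries stand apart for lens (564 CPM, OIR-Norm replicate 2) and surface epithelium (28.7 CPM, OIR-CIH replicate 3).

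OIR-Norm replicate 2, the library with lens RNA, held the highest OIR-Norm value of 4 members (Lad1, Scube1, Sned1 and Tgm2), and OIR-Norm replicate 3 the lowest of 4 (Lad1, Pcolce, Sned1 and Tgm2). OIR-Norm replicate 2 also had the highest endothelial (373 CPM), pericyte and smooth muscle (243 CPM) and fibroblast (213 CPM) sums of the 6 libraries. Its rod photoreceptor sum was the lowest (50431 CPM). A link of these sums to the members' values was not tested. With OIR-Norm replicate 2 and OIR-CIH replicate 3 both left out, the log2 fold changes of Lad1, Scube1, Tnnt2, Pcolce, Sned1 and Tgm2 were -1.60, -1.81, -1.25, -1.11, -0.78 and -0.91.

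The genes with the most similar profile were sought for each member among genes with a mean of at least 1 CPM, by the root-mean-square difference of log2(CPM + 0.5) over the 6 libraries after each gene was centred on its own mean. Lad1 and Scube1 were each other's nearest gene, 0.13 apart, followed for both by Serpina3n, a secreted protease inhibitor of reactive glia (0.14 and 0.17), and Bcl3, a nuclear IkB protein (0.16 and 0.18). With 0.1 in place of 0.5 CPM added, the nearest gene of Lad1 was Serpina3n and that of Scube1 was Bcl3. Tnnt2, with its larger spread within groups, had its nearest genes farther away, at 0.23 for Gm15983, 0.24 for Fgf2, which encodes fibroblast growth factor 2, and 0.26 for Gm14412. It was 0.31 from its chromosomal neighbour Lad1. Pcolce was 0.11 from Fgf2, 0.13 from Cd84, a leukocyte receptor gene, and 0.16 from Serpina3n. Sned1 was closest to Tnfrsf1b, a tumor necrosis factor receptor gene, Ahnak, which encodes a large scaffold protein, and Slc7a11, a cystine transporter gene, at 0.09 each. Tgm2 was closest to the transcription factor gene Cebpd (0.09), followed by the noncoding RNA H19 and the kinase gene Jak3 (0.15 each). Among the members themselves the distance ran from 0.13 for Lad1 and Scube1 to 0.46 for Tnnt2 and Sned1. These distances describe 6 libraries in which the group difference is the largest part of each profile.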

How the data were processed

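Retinal RNA of 3 OIR-CIH and 3 OIR-Norm libraries at PN18 was used. The authors aligned the reads with STAR 2.7.9a, and the counts they deposited are whole numbers for each gene, not normalized. The paper names Ensembl 105 and the submitters' processing notes GRCm38, and the strand column kept is not given in the sources used here. Symbols came from GENCODE M21 (GRCm38) by gene identifier for 32158 of 32285 genes, and coordinates are those of M21. Promoter windows are from RefSeq (GRCm38.p6).

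Groups were taken from the sample titles. The 20021 genes with 10 or more counts over all libraries were tested in R 4.3.3 by the quasi-likelihood test of edgeR 4.0.16 with TMM scaling, without covariates, on all 6 libraries. Adjusted p are Benjamini-Hochberg values over all genes tested. The standard error is the one implied by the F statistic. Genes were called at an adjusted p under 0.05 with a log2 fold change beyond 0.5 in size. The fit was checked on simulated counts. Alternatives were DESeq2 1.42.0, limma 3.58.1 (voom, and log2(CPM + 0.5)), another scaling, other filters, a replicate block, marker sums without each marker (chosen after seeing the data), no minimum fold change and leaving out libraries; the fit without both OIR-Norm replicate 2 and OIR-CIH replicate 3 was also chosen after seeing the data. Chi-square per degree of freedom between replicates was at least 11.5, so that none was a copy.

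The members and lists were chosen with earlier results of these data known. Named genes were the members, 3 nearest profiles each, adjacent genes, called listed genes and the 3 most abundant of each list. Paralogs and direct partners of members, Nnat, Krt5, Col17a1, Epcam, Lamb3, Gli1, Col1a2, Col3a1, Nid1, Nid2, overlapping genes, genes called by an alternative and single markers were named after their values were seen.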

Additional observations from a re-analysis of the deposited data

How the results depend on the processing

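The log2 fold change of each member was negative in all alternatives, a direction that their choice fixes. Leaving out each library in turn gave -2.11 to -1.79 for Scube1, -1.71 to -1.57 for Lad1, -1.51 to -1.20 for Tnnt2, -1.25 to -1.04 for Pcolce, -1.29 to -0.98 for Tgm2 and -0.89 to -0.65 for Sned1. The value of Scube1 moved beyond the spread between libraries to -1.51 with limma on log2(CPM + 0.5), which shrinks genes with few counts. It also moved beyond that spread, to -1.79, without OIR-Norm replicate 2.

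Of all genes 63 were called, 43 lower and 20 higher. DESeq2 called 135 (101 lower, 34 higher), and a filter of 1 count in total gave 213 (153 lower, 60 higher). The cause was not tested. All 63 were among both sets. Leaving out each library gave 35 to 104 calls, 24 to 88 lower and 11 to 33 higher, and 4 to 6 members. Sned1 was not called without OIR-CIH replicate 1, and Tgm2 not without OIR-CIH replicate 1, without OIR-CIH replicate 3, or without OIR-CIH replicate 3 and OIR-Norm replicate 2 together. The lowest counts came without OIR-CIH replicate 1, the highest total and lower counts without OIR-Norm replicate 3 and the 33 higher without OIR-Norm replicate 1. The count of listed relatives called lower was 1 and went from 0 (without OIR-CIH replicate 1 or 2) to 5 (without OIR-Norm replicate 3) in these fits. It was 4 with DESeq2, 0 with limma-voom, limma on log2(CPM + 0.5) and filterByExpr, and 7, with 2 higher, under the filter of 1 count. The cause was not tested.

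Both groups carry replicate numbers 1 to 3, which were not taken as a pairing, since deviations of same-numbered libraries correlated at 0.162, 0.143 and -0.238. With the replicate block 84 genes were called, 32 of them higher, and 2 listed genes, Krt5 higher and Flnc lower (-1.81, adjusted p = 0.00738 by edgeR).

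With another minimum or added value 12 and 13 of the 18 nearest genes were shared. Scube1 rests on 22 to 121 reads in a library, the fewest of the members.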
